A study of Mus musculus with 6 samples.

Results

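The heat-shock proteins Hspa8, Hspa1a, Hspa1b, Hspa5, Hsp90aa1, Hsp90ab1, Hspd1, Hspe1 and Dnajb1 and the transcription factor Hsf1 were followed in RNA sequencing of mouse oocytes. They are 10 of the 54532 genes in the deposited tables, chosen by gene symbol, and each symbol had a single row. The 3 AMH libraries came from C57BL/6J mice given 300 ng of recombinant mouse anti-Müllerian hormone (AMH, made in bacteria) into the abdominal cavity each day, starting at 21 days of age. The 3 control libraries came from mice of the same strain, and both groups are labelled as 6 to 7 weeks old. AMH is a hormone of the TGF-beta family that granulosa cells of growing follicles secrete. The sources used here do not give how long injections lasted, whether controls were injected, how many oocytes of which stage entered a library or whether cumulus cells were stripped off. Nothing in the labels says that libraries came from separate animals, so a p-value here gauges only how these libraries scatter, and that scatter may be technical.

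Heat-shock proteins are chaperones: HSP70 proteins hold unfolded chains with the help of HSP40 co-chaperones, HSP90 proteins finish the folding of kinases and receptors, and the HSP60 and HSP10 chaperonin folds proteins inside mitochondria. HSF1 is the factor that turns on the inducible members after heat or other damage, by binding repeats of the bases GAA and TTC in promoters. In mice, HSF1 made by the oocyte is needed for meiosis and for early embryos, Hsp90aa1 is one of its main targets there, and grown oocytes induce the stress forms of HSP70 poorly.

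The promoters are shown first, because Hspa1a and Hspa1b have nearly the same one and those of Hspd1 and Hspe1 overlap. RefSeq windows on GRCm38.p6, from 250 bases before to 50 bases after a start, were found for 6 of the 10 genes. Capitals mark matches to GAANNTTC or TTCNNGAA, a pair of HSF1 units, on either strand. Such a match lay in 15.1% of all 32851 windows.
Hspa1a, chr17:34972107-34972406, minus strand: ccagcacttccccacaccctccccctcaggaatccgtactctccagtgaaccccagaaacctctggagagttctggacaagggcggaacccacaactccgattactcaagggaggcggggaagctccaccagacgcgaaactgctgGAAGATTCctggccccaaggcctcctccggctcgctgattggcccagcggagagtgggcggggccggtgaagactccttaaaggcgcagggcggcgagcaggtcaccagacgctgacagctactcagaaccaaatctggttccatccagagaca
Hspa1b, chr17:34959189-34959488, minus strand: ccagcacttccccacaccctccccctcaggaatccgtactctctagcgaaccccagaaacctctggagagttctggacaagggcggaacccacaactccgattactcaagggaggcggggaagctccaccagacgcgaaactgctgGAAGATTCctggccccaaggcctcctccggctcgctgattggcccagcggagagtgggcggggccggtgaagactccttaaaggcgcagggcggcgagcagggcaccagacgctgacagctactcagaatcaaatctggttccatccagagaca
Hspe1, chr1:55087898-55088197, plus strand: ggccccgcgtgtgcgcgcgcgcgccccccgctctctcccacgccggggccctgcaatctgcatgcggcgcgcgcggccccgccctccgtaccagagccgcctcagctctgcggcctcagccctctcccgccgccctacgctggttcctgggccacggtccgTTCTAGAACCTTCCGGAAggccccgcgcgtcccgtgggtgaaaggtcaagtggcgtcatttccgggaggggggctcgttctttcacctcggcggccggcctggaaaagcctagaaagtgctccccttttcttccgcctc
The windows of Hspa1a and Hspa1b were the same at 296 of 300 bases. The 18 capitals of Hspe1 hold overlapping HSF1 units, lie at chr1:55088059-55088076 and read TTCCGGAAGGTTCTAGAA on the other strand in the first of 2 windows of Hspd1. They lie between the start of Hspe1 and the Hspd1 start of that window. The second Hspd1 window, chr1:55088194-55088493, begins beyond them and held no match to a pair of units, and from its start they lie downstream. They hold 2 overlapping runs of 3 alternating units (GAA and TTC in turn, 2 bases apart). A run of 3 was found on either strand in 0.603% of windows, and longer runs were not counted. Neither window of Dnajb1 held a match to a pair of units, which says only that these letters are not in it.

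Hspa5 has a different kind of promoter, since its inducer is unfolded protein in the endoplasmic reticulum. Its window is given with capitals on each CCAAT box, which 37.4% of windows held on either strand, and on the ER stress element, CCAAT and CCACG with 9 bases between, which includes the last of those boxes and was found in 0.119% of windows.
Hspa5, chr2:34771840-34772139, plus strand: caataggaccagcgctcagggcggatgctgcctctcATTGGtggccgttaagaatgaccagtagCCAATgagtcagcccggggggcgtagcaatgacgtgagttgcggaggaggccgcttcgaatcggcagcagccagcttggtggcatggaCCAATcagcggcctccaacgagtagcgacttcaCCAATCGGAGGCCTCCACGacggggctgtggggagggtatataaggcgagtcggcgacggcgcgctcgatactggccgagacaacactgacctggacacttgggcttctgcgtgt
A match is a description of the letters, and whether any factor was bound was not measured.

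Libraries held 66392859 to 69395450 counts in the AMH group and 69997949 to 72109080 counts in the control group. Oocyte markers, a list of 18 genes with Gdf9 and Bmp15 among them, had counts for all 18 and summed to 14830 to 25240 CPM in AMH libraries and 25730 to 33370 CPM in controls. CPM is the count relative to the library size, scaled by edgeR's TMM method. Markers of cumulus and granulosa cells (18 of 18 with counts) summed to 2636, 2349 and 2670 CPM in AMH 1, 2 and 3 and to 479, 287 and 2781 CPM in controls 1, 2 and 3. Control 3 thus lay above every AMH library in this sum, though not for every marker in it. Its counts were closer to those of AMH 3 than to any other library. Fold changes of the genes that separate the groups, ratios and list medians are therefore also given without control 3, AMH 3 or both. For a single gene, the value shown without 1 of them is from the drop that passed the threshold.

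Per length, the cytosolic HSP90 genes had the highest levels of the 10, and the inducible HSP70 genes the lowest. This order rests on FPKM values, which the authors divided by gene length. For Hsf1 that length was 7099 bases, against 2104 bases in its longest protein-coding transcript. For Hspa8 these were 4301 and 2394 bases, for Hspe1 1474 and 774 bases, and for Hspa1b 2803 bases both. Where a gene falls in the order can thus change with the length used. Hsp90aa1 averaged 287 ± 69.5 FPKM in AMH and 390.1 ± 48.5 FPKM in control libraries (SD, n = 3 each), and Hsp90ab1 averaged 352 ± 34.2 against 296 ± 48.7 FPKM. By mean FPKM they ranked 84 and 90 among 18868 tested genes. Their order changed between libraries: Hsp90aa1 was above Hsp90ab1 in 2 of 6, controls 1 and 2.

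Hspa8 followed with 170.0 ± 27.2 FPKM in AMH and 55.3 ± 25.1 FPKM in control libraries, and Hspa5 with 115 ± 16.6 against 57.4 ± 29.2 FPKM (SD, n = 3 each). Hspd1, Hsf1, Dnajb1 and Hspe1 lay between 12.3 and 48.2 FPKM in every library. Among neighbours in the order by mean, Hsp90ab1 over Hspa8, Hspa5 over Hspd1, Dnajb1 over Hspe1 and Hspa1b over Hspa1a held in 6 of 6 libraries. Hspa8 was above Hspa5 in 4 of 6, Hspd1 above Hsf1 in 4 of 6, Hsf1 above Dnajb1 in 5 of 6 and Hspe1 above Hspa1b in 5 of 6. Those last pairs are not set apart beyond the spread of libraries.

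**Figure D1:**
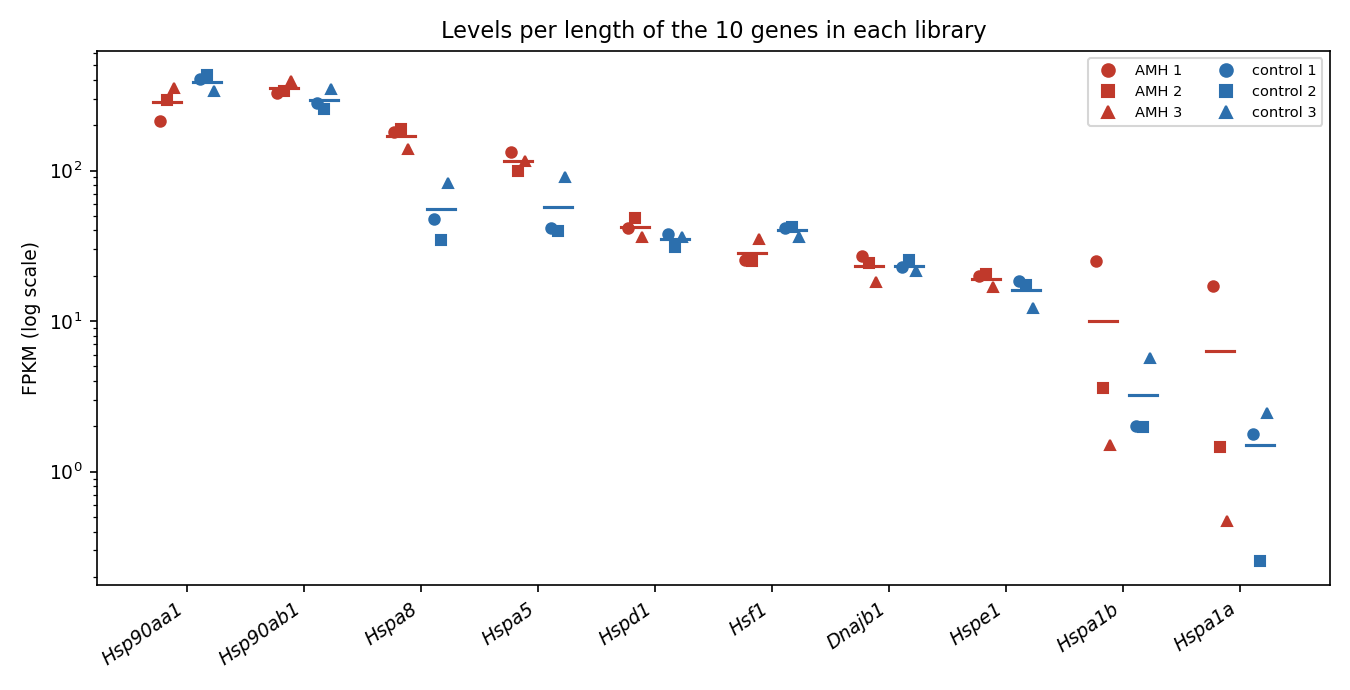
FPKM of each gene (log scale) in every library, AMH in red left of control in blue, with a bar at the mean of 3 libraries. Hspa8 and Hspa5 lie in every AMH library above every control, Hsf1 in every AMH library below every control, and Hspa1a and Hspa1b are high in AMH 1.

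The 10 genes did not move as 1 group between AMH and control oocytes. Hspa8 and Hspa5 had higher values in all AMH libraries, Hsf1 had lower values in all AMH libraries under TMM scaling (its log2 fold change turned positive with oocyte-list scaling), and the groups overlapped for the other 7. None of the 10 passed edgeR's quasi-likelihood test after Benjamini-Hochberg adjustment over 18868 genes, where 0 genes, or 0% of those tested, passed. At an unadjusted p under 0.05 the same test had 2 of the 10 higher, against 20.2% of all genes, and 1 lower, against 17.3%. Groups that did not overlap were as common elsewhere, with 26.9% of all tested genes above and 23.3% below in every AMH library. The median log2 fold change of the 10 was 0.24 (0.03 without AMH 1), and that of all tested genes was -0.01. In other fits, DESeq2 called 1 of the 10 higher (Hspa8) and 0 lower, with 16.3% of all genes called higher and 7.78% lower, while limma-voom and limma on FPKM called 0. With sample quality weights limma-voom called 6 of the 10, with 39.6% of all genes higher and 36.3% lower.

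Hsf1, the regulator, had 182, 180 and 265 CPM in AMH 1, 2 and 3, against 304, 314 and 271 CPM in controls 1, 2 and 3. AMH 3 and control 3 were nearly level, and the gap came from the other libraries. The log2 fold change was -0.50 ± 0.20 (SE; edgeR adjusted p = 0.124), a fold of 0.705. Without AMH 3 it was -0.74 and past the threshold (edgeR adjusted p = 0.04), along with 6.73% of all genes as lower. Without control 3 Hsf1 did not pass. The Hsf1 value is relative to TMM: scaling to the oocyte marker list instead gave Hsf1 a log2 fold change of 0.20. The median over all genes in that fit was 0.74. That scaling used the summed list, where Gdf9 and H1foo held 5542 and 5091 of 15430 CPM in AMH 1. Both genes were chosen after their values were seen. Oocyte marker CPM (14830 to 25240 in AMH and 25730 to 33370 in control libraries) moved with Hsf1 from library to library, and its part in the result was not tested. In bulk RNA, fewer cells of a type and less RNA per cell cannot be told apart.

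The inducible HSP70 genes Hspa1a and Hspa1b (chr17:34969190-34972156 and chr17:34956436-34959238, GRCm38) were high in a single library. Hspa1a had 51.4, 4.37 and 1.495 CPM in AMH 1, 2 and 3, against 5.48, 0.795 and 7.72 CPM in controls 1, 2 and 3. Hspa1b had 70.6, 10.2 and 4.47 CPM in AMH 1, 2 and 3, against 5.85, 5.80 and 17 CPM in controls 1, 2 and 3. AMH 1 stood above all other libraries for both, AMH 3 was the lowest for Hspa1b, and the groups overlapped.

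The fitted log2 fold changes, 2.03 ± 1.37 for Hspa1a and 1.57 ± 1.04 for Hspa1b (SE; edgeR adjusted p = 0.274 and 0.264), rested on that library. Without AMH 1 they turned to -0.68 and -0.39. Of the 100-base windows of the Hspa1a transcript 47.1% occurred unchanged in Hspa1b, so how reads were split between the copies is uncertain. Summed over both copies the level was 122, 14.6 and 5.97 CPM in AMH 1, 2 and 3, against 11.3, 6.59 and 24.7 CPM in controls 1, 2 and 3, with AMH 1 again alone at the top. AMH 1 also had the highest erythroid marker sum, 357 CPM against 29.9 and 22.8 CPM in AMH 2 and 3 and 1.11 to 5.64 CPM in controls, and the highest ciliated and secretory oviduct marker sum, 903 CPM against 229 to 558 CPM in the other 5. Their part in the Hspa1a and Hspa1b values was not tested.

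Dnajb1, the HSP40 co-chaperone of inducible HSP70, was also highest in AMH 1, but control 2 was close to it. It had 87.6, 79.7 and 62.0 CPM in AMH 1, 2 and 3, against 75.5, 85.0 and 73.2 CPM in controls 1, 2 and 3. The highest and the lowest value were both AMH libraries. The log2 fold change was -0.03 ± 0.18 (SE; edgeR adjusted p = 0.911), and its sign was positive in 8 of 18 alternative fits.

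Hspa8 (chr9:40800984-40810087), the constitutive HSP70 known as HSC70, had the smallest edgeR p of the 10. It had 788, 830.0 and 637 CPM in AMH 1, 2 and 3, against 212, 156 and 379 CPM in controls 1, 2 and 3. Every AMH library was above every control, and control 3 was the nearest to the AMH range. The fold was 3.02, with a log2 fold change of 1.59 ± 0.34 (SE; edgeR unadjusted p = 0.00275, adjusted p = 0.116), and limma on log2(FPKM + 1) gave 1.68 (adjusted p = 0.0602). Its rank by p was 252 of 18868. The direction held in 18 of 18 alternative fits, whose log2 fold changes ran from 1.03 to 2.33. Without control 3 the value was 2.02 and past the threshold (edgeR adjusted p = 0.0151), as were 26.8% of all genes as higher. Without AMH 3 Hspa8 did not pass.

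Hspa5 (chr2:34771970-34777547), the HSP70 of the endoplasmic reticulum known as BiP, had 564, 424 and 520.4 CPM in AMH 1, 2 and 3, against 181, 174 and 408 CPM in controls 1, 2 and 3. AMH 2 and control 3 were close, at 424 and 408 CPM. The fold was 1.98, with a log2 fold change of 0.98 ± 0.36 (SE; edgeR adjusted p = 0.119), and 1.49 without control 3 (edgeR adjusted p = 0.0155). Without AMH 3 Hspa5 did not pass the threshold. With the summed cumulus marker level as a covariate, the log2 fold change was 0.37 for Hspa5 (edgeR adjusted p = 0.527) and 1.03 for Hspa8 (edgeR adjusted p = 0.52). Control 3 had more than controls 1 and 2 of both genes. It had less than the lowest AMH library, at 379 against 637 CPM for Hspa8 and 408 against 424 CPM for Hspa5. Its cumulus marker sum of 2781 CPM topped all libraries, but single markers differed. Fst had 426 CPM in control 3 against 197 to 307 CPM in AMH libraries, and Amhr2 had 18.9 against 27.2 to 35.9 CPM. Of the 18 markers, 6 lay above and 1 below in every AMH library (26.9% and 23.3% of all genes). Fst and Amhr2 were chosen after their values were seen. Beyond the covariate, the part of cumulus cell RNA in either difference was not tested.

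**Figure D2:**
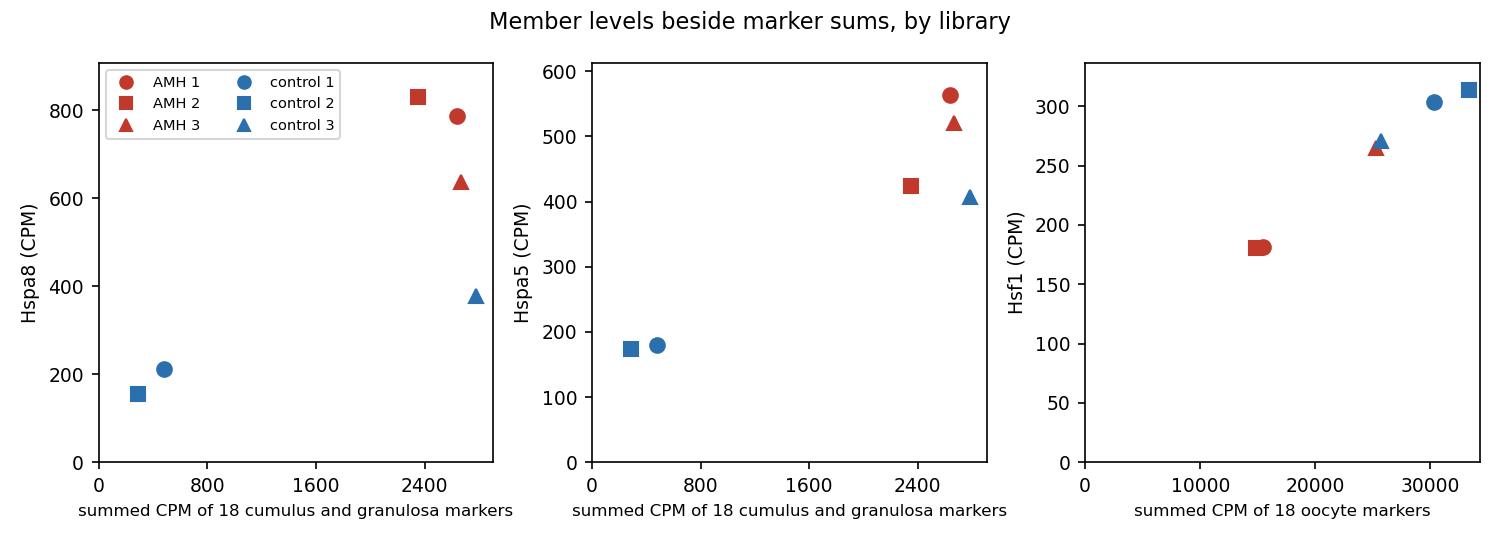
CPM of Hspa8 and Hspa5 against the summed CPM of 18 cumulus and granulosa markers, and of Hsf1 against 18 oocyte markers, 1 point per library. Control 3 sits with the AMH libraries on the cumulus axis. It lies below them for Hspa8, and for Hspa5 it is close to AMH 2 (408 against 424 CPM). Hsf1 runs from 180 CPM at low to 314 CPM at high oocyte marker sums.

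The cytosolic HSP90 genes had fold changes of opposite sign, and neither passed the test. Hsp90aa1, the inducible alpha form (chr12:110690605-110702728), had 851, 1171 and 1475 CPM in AMH 1, 2 and 3, against 1636, 1764 and 1400 CPM in controls 1, 2 and 3. AMH 3 was above control 3, so the groups overlapped, and the log2 fold change was -0.46 ± 0.24 (SE; edgeR adjusted p = 0.184; 0.26 with oocyte-list scaling). Hsp90ab1, the constitutive beta form (chr17:45567775-45573271), had 997, 1021 and 1248 CPM in AMH 1, 2 and 3, against 877, 795 and 1109 CPM in controls 1, 2 and 3. Its log2 fold change was 0.23 ± 0.20 (SE; edgeR adjusted p = 0.371), and -0.02 with the cumulus covariate.

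The mitochondrial chaperonin pair had overlapping groups. Hspd1, the HSP60 subunit (chr1:55077835-55088243), had 111, 129 and 102 CPM in AMH 1, 2 and 3, against 103, 85.6 and 101 CPM in controls 1, 2 and 3. Hspe1, the HSP10 lid (chr1:55088132-55091307), had 29.9, 30.6 and 26.6 CPM in AMH 1, 2 and 3, against 28.2, 26.8 and 19.1 CPM in controls 1, 2 and 3. AMH 3 lay inside the control range for both genes. Hspd1 had a log2 fold change of 0.24 ± 0.17 (SE; edgeR adjusted p = 0.276) and Hspe1 of 0.23 ± 0.22 (edgeR adjusted p = 0.412), and with upper-quartile scaling these were 0.02 and -0.01. The genes overlap by 112 bases on opposite strands, and strand use in counting is not given, so reads there cannot be assigned with certainty.

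**Figure D3:**
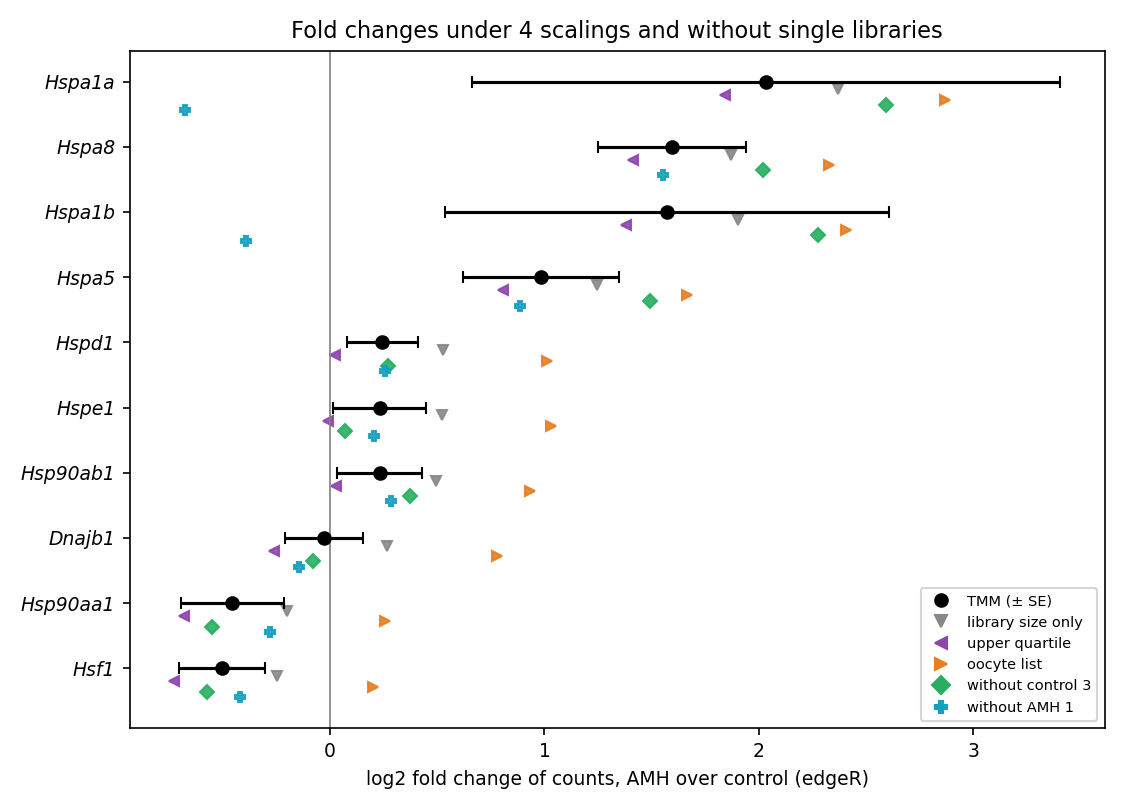
Log2 fold change of each gene, AMH over control, with the edgeR standard error for TMM scaling in black, and the same value under 3 other scalings and without control 3 or AMH 1. Hspa8 and Hspa5 stay right of 0 in all of them, while Hspa1a and Hspa1b cross it without AMH 1 and Hsf1 and Hsp90aa1 cross it with oocyte-list scaling.

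Without both control 3 and AMH 3, edgeR called 5 of the 10 genes: Hspa8, Hspa5 and Hsp90ab1 higher and Hsf1 and Hsp90aa1 lower, at log2 fold changes of 2.16, 1.497, 0.29, -0.75 and -0.73. In that fit 29.4% of all genes were called higher and 21.6% lower, so 3 and 2 of 10 are close to the background. That fit has 2 libraries per group. The 2 left out were picked because their counts were close to each other, so more calls without them are not independent support.

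Ratios of 2 genes within a library do not depend on how libraries are scaled to each other. The FPKM ratio of Hsp90aa1 to Hsp90ab1 was 0.651, 0.875 and 0.902 in AMH 1, 2 and 3, against 1.42, 1.69 and 0.963 in controls 1, 2 and 3. All AMH libraries were below all controls, though AMH 3 and control 3 differed little, and the mean difference in log2 was -0.72 (-0.95 without control 3, -0.81 without AMH 3). The ratio of Hspa8 to Hsf1 was 7.16, 7.60 and 3.97 in AMH 1, 2 and 3, against 1.153, 0.819 and 2.31 in controls 1, 2 and 3, which is 4.63-fold higher on average. This ratio had to separate the groups, since Hspa8 and Hsf1 each did so in opposite directions, so its p is not given. The ratio of Hspa5 to Hspa8 was 0.728, 0.520 and 0.831 in AMH 1, 2 and 3, against 0.866, 1.14 and 1.09 in controls 1, 2 and 3. Both HSP70 genes had higher CPM in AMH libraries, but Hspa8 by the larger factor in this ratio (mean log2 difference -0.59, -0.55 without control 3 and -0.74 without AMH 3).

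The ratios of Hsp90aa1 to Hsp90ab1 and of Hspa5 to Hspa8 each separated the groups. The two-sided exact permutation p was 0.1 for each (0.167 adjusted over 5 ratios), the smallest that 3 against 3 libraries allow. The 5 include the ratio of Hspa8 to Hsf1, whose outcome was fixed in advance, so the adjusted value is lower than it would be without that ratio. The ratio of Hspd1 to Hspe1 was 2.07, 2.36 and 2.15 in AMH 1, 2 and 3, against 2.04, 1.78 and 2.95 in controls 1, 2 and 3 (two-sided exact permutation p = 1). The AMH values lay inside the control range. The ratio of summed Hspa1a and Hspa1b to Hspa8 was 0.232, 0.0265 and 0.0142 in AMH 1, 2 and 3, against 0.0797, 0.0646 and 0.0984 in controls 1, 2 and 3. AMH 1 was the highest and the other AMH libraries were the lowest of the 6, with a two-sided exact permutation p of 0.5. Its log2 difference of -0.85 was -2.04 without AMH 1, -0.47 without AMH 2 and -0.02 without AMH 3.

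**Figure D4:**
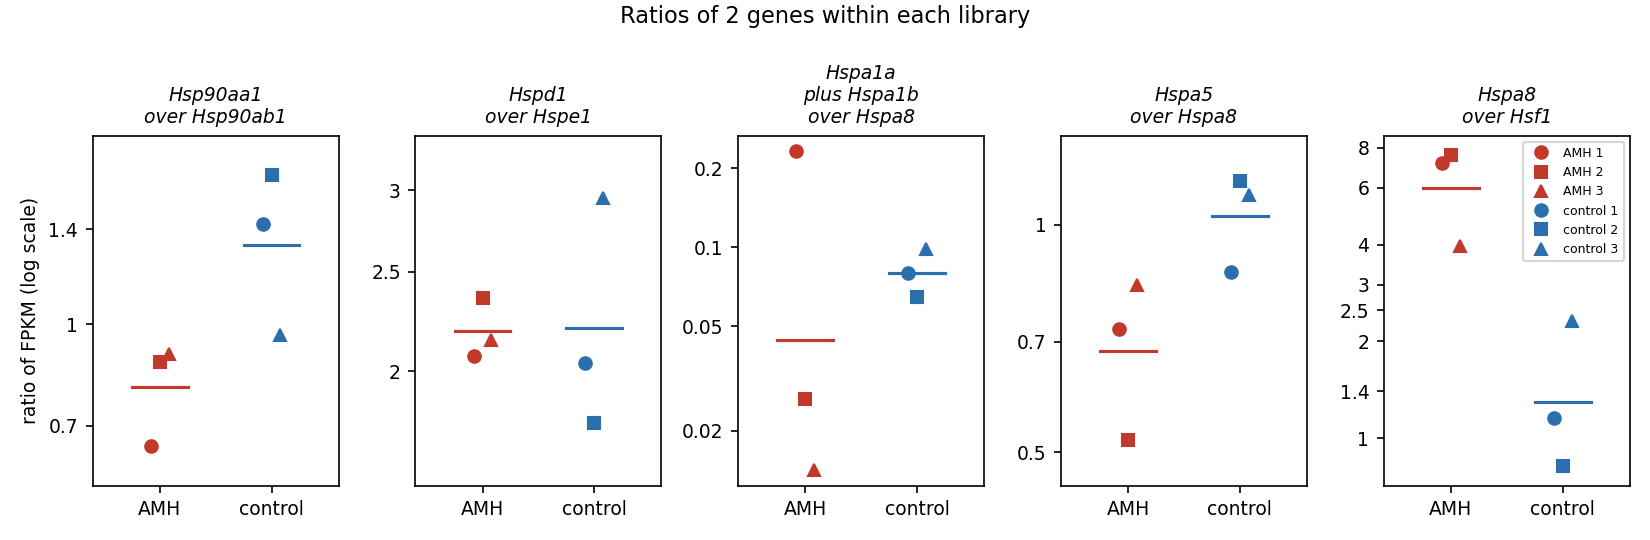
Ratio of FPKM of 2 genes (3 for the inducible HSP70 sum) in each library, AMH left of control, log scale, with a bar at the geometric mean of 3 libraries. The ratio of Hsp90aa1 to Hsp90ab1 lies below 1 in the AMH libraries and reaches 1.69 in control 2, and that of Hspa8 to Hsf1 lies between 3.97 and 7.60 in AMH libraries.

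The make-up of the set differed accordingly. Hsp90aa1 made up 21.2%, 28.2% and 31.9% of the summed FPKM of the 10 genes in AMH 1, 2 and 3, against 44.8%, 49.05% and 34.5% in controls 1, 2 and 3. Hspa8 made up 17.9%, 18.3% and 12.6% in AMH 1, 2 and 3, against 5.31%, 3.95% and 8.54% in controls 1, 2 and 3. The share of Hsp90ab1 differed less, at 32.2% to 35.3% in AMH and 29.0% to 35.9% in control libraries.

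The other genes of the heat-shock response were read from lists chosen by function, and 0 of their members passed edgeR's test. Their counts are to be read against all tested genes, of which 26.9% lay above and 23.3% below in every AMH library. Of 13 further heat-inducible HSF1 targets, all tested, 12 had a positive log2 fold change, 6 were higher in all AMH libraries than in any control (26.9% of all genes) and 0 lower (23.3%), and the median was 0.73. That median was 0.38 without AMH 1 and 0.80 without control 3 and AMH 3. Fkbp4, an HSP90-bound immunophilin, had 107, 76.0 and 70.2 CPM in AMH 1, 2 and 3, against 24.7, 12.5 and 50.3 CPM in controls 1, 2 and 3. At an unadjusted p under 0.05, edgeR had 3 of the 13 higher, a share near the 20.2% of all genes. Of the 5 small heat-shock protein genes tested, of 10 listed, 1 lay above in every AMH library (26.9% of all genes): Hspb1 had 23.2, 11.9 and 14.0 CPM in AMH 1, 2 and 3, against 9.21, 11.2 and 9.15 CPM in controls 1, 2 and 3. Hspb8 had 7.91, 4.80 and 1.14 CPM in AMH 1, 2 and 3, against 1.10, 0.218 and 1.91 CPM in controls 1, 2 and 3, so its groups overlapped.

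Among the other heat shock factors and the HSF1 binding protein Hsbp1, 3 of 5 were tested. Hsf5 had 20.6, 22.5 and 22.2 CPM in AMH 1, 2 and 3, against 39.5, 39.4 and 33.6 CPM in controls 1, 2 and 3. Every AMH library was below every control, as for 23.3% of all genes. The log2 fold change was -0.78 (edgeR unadjusted p = 0.00304, adjusted p = 0.116). The oocyte marker list had a median of -0.80 in the same fit, and its part in the Hsf5 difference was not tested. Hsf2 had 1.36, 1.45 and 1.30 CPM in AMH 1, 2 and 3, against 1.23, 0.608 and 1.23 CPM in controls 1, 2 and 3, a level far below that of Hsf1.

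Of the other HSP70 and HSP110 genes, 2 of 7 tested lay above and 3 below in every AMH library (26.9% and 23.3% of all genes). Their median was 0.28, 0.31 without control 3 and AMH 3, and -0.06 with a filter of 5 CPM. Hspa12a had 32.3, 49.9 and 56.4 CPM in AMH 1, 2 and 3, against 86.6, 99.97 and 68.9 CPM in controls 1, 2 and 3. Hspa12b was barely present, with 0.555, 0.903 and 0.183 CPM in AMH 1, 2 and 3, against 0.0931, 0 and 0.0152 CPM in controls 1, 2 and 3.

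The HSP40 family was split much as all genes were, with 12 of 42 tested above and 9 below in every AMH library (26.9% and 23.3% of all genes). Its median was 0.07, 0.20 without control 3 and AMH 3, and -0.15 with upper-quartile scaling. Dnajc3, an HSP40 partner of Hspa5, had 306, 386 and 458 CPM in AMH 1, 2 and 3, against 618, 666 and 565 CPM in controls 1, 2 and 3. Dnajc4 had 11.3, 8.85 and 8.91 CPM in AMH 1, 2 and 3, against 4.10, 2.57 and 4.67 CPM in controls 1, 2 and 3. The first was thus lower, and the second higher, in all AMH libraries.

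Exchange factors and other partners of HSP70 had a median log2 fold change of 1.11, with 7 of 10 above and 0 below in every AMH library (26.9% and 23.3% of all genes). Bag6 had 69.8, 74.0 and 43.1 CPM in AMH 1, 2 and 3, against 29.8, 25.7 and 37.0 CPM in controls 1, 2 and 3. Stub1, the ubiquitin ligase CHIP, had 36.4, 29.4 and 21.6 CPM in AMH 1, 2 and 3, against 12.6, 8.73 and 16.6 CPM in controls 1, 2 and 3. At an unadjusted p under 0.05, edgeR had 5 of the 10 higher and 0 lower (20.2% and 17.3% of all genes). With the cumulus covariate the median of these 10 genes was 0.49, and without control 3 and AMH 3 it was 1.52.

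Of the HSP90 co-chaperones, 6 of 12 lay above and 3 below in every AMH library (26.9% and 23.3% of all genes). Their median was 0.21, 0.33 without control 3 and AMH 3, and -0.0042 with upper-quartile scaling. Cdc37, which brings kinases to HSP90, had 85.2, 69.7 and 54.7 CPM in AMH 1, 2 and 3, against 28.2, 18.3 and 42.4 CPM in controls 1, 2 and 3. Its paralogue Cdc37l1 went the other way, with 76.5, 79.4 and 119 CPM in AMH 1, 2 and 3, against 161, 157 and 130 CPM in controls 1, 2 and 3.

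Chaperones and sensors of the endoplasmic reticulum had a median of 0.37, with 6 of 24 above and 3 below in every AMH library (26.9% and 23.3% of all genes). The median was 0.08 with the cumulus covariate and 0.54 without control 3 and AMH 3. Manf, a secreted protein of the ER stress response, had 34.0, 25.1 and 25.9 CPM in AMH 1, 2 and 3, against 9.57, 9.34 and 17.5 CPM in controls 1, 2 and 3. The summed list, Hspa5 not included, was 6502, 6358 and 6318 CPM in AMH 1, 2 and 3, against 5431, 5426 and 6574 CPM in controls 1, 2 and 3. Control 3 was thus the highest library, in a sum that a few abundant genes weigh on. The sensor Ern1, chosen after its values were seen, had 728, 1086 and 1008 CPM in AMH 1, 2 and 3, against 1520, 1584 and 1297 CPM in controls 1, 2 and 3. Of the 24 genes, 18 had a positive and 6 a negative log2 fold change.

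Mitochondrial chaperones and proteases had a median of 0.40, with 4 of 10 above and 1 below in every AMH library (26.9% and 23.3% of all genes). The median was 0.23 with the cumulus covariate and 0.64 without control 3 and AMH 3. Trap1, the mitochondrial HSP90, had 68.1, 67.2 and 56.0 CPM in AMH 1, 2 and 3, against 25.8, 18.2 and 49.6 CPM in controls 1, 2 and 3. Grpel2, an exchange factor of mitochondrial HSP70, had 12.1, 11.03 and 6.39 CPM in AMH 1, 2 and 3, against 4.98, 3.51 and 5.96 CPM in controls 1, 2 and 3. Subunits of the cytosolic chaperonin TRiC and of prefoldin had a median of 0.73, with 9 of 15 above and 0 below in every AMH library (26.9% and 23.3% of all genes). The median was 0.49 with the cumulus covariate and 1.015 without control 3 and AMH 3. Cct2 had 88.5, 84.9 and 71.9 CPM in AMH 1, 2 and 3, against 35.4, 28.3 and 54.1 CPM in controls 1, 2 and 3, and Tcp1 had 88.6, 83.8 and 69.1 against 44.0, 42.7 and 58.4 CPM in the same order. Both were highest in AMH 1, and control 3 was their nearest control.

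**Figure D5:**
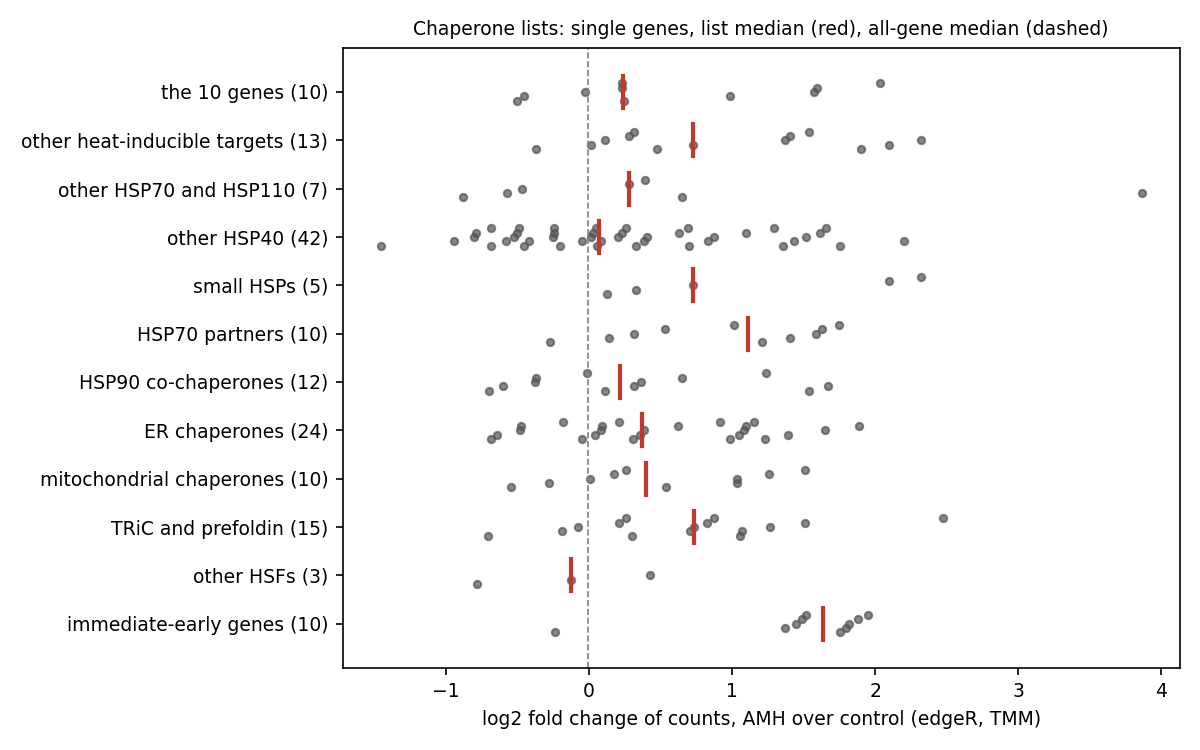
Log2 fold change of every tested gene of each list (points, number tested in brackets), AMH over control, with the list median in red and the median of all 18868 tested genes dashed. The medians run from -0.13 for other heat shock factors to 1.64 for immediate-early genes, and most lists have genes on both sides of 0.

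Immediate-early genes, which many stresses induce, were listed beside the chaperones. They summed to 2093, 2438 and 702 CPM in AMH 1, 2 and 3, against 966, 607 and 1048 CPM in controls 1, 2 and 3, so the groups overlapped. Ier2, an early growth-response gene, had 204, 224 and 58.8 CPM in AMH 1, 2 and 3, against 57.9, 17.2 and 69.0 CPM in controls 1, 2 and 3, and Zfp36, an mRNA decay factor, had 154, 124 and 39.2 against 42.8, 18.8 and 61.2 CPM in the same order. AMH 1 and 2 were high for both, as for the summed list, and Hspa1a was high in AMH 1 but not in AMH 2.

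Likeness over the 6 libraries was measured by Pearson's r of log2 CPM against 10152 other protein-coding genes that averaged 5 CPM or more. The libraries share the group contrast and marker differences, so r is a description. Hspa8 was most like Gtf2h4 (r = 0.999), Cct2 (0.998) and Kxd1 (0.997). Gtf2h4 had 19.7, 19.6 and 16.6 CPM in AMH 1, 2 and 3, against 6.14, 4.74 and 10.3 CPM in controls 1, 2 and 3. Hspa5 was most like Ttf1 (r = 0.998), Slc37a1 (0.996) and Rab36 (0.995), and Hsp90ab1 most like Anp32a (0.988), Tsc22d1 (0.988) and Msmo1 (0.986). Hsf1 was most like Lsr (r = 0.9998), Eif2b1 (0.999) and Anxa7 (0.999), each with AMH 1 and 2 low and AMH 3 close to control 3. Among the 10 genes themselves, r was 0.933 for Hspa8 with Hspa5, 0.914 for Hsf1 with Hsp90aa1 and -0.877 for Hspa8 with Hsf1. Other pairs were as strong, with 0.909 for Hspa1a with Hspa1b and -0.885 for Hspa1b with Hsp90aa1. These pairs were chosen after their values were seen.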

How the data were processed

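Poly-A RNA of oocytes was sequenced in 3 AMH and 3 control libraries. The authors deposited whole-number read counts per gene and FPKM values in 1 table each. Per the submitters' processing notes the tools were featureCounts 1.5.0-p3, HISAT2 2.0.5 and DESeq2 1.20.0, with GRCm38. The strand setting and the handling of reads with several matches are not named there. The positions of the 10 genes were those of GENCODE M21, and 0 sample columns were left unused. Depth was 66392859 to 72109080 counts per library.

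Counts were tested with edgeR 4.0.16 (quasi-likelihood test, TMM scaling, filterByExpr, Benjamini-Hochberg adjustment over 18868 genes, threshold 0.05), in R 4.3.3. All 10 genes passed the filter. Deposited FPKM values were tested with limma 3.58.1 on log2(FPKM + 1), over 11894 genes above 1 FPKM in at least 3 libraries, and fold changes on that scale understate low genes. Ratios were tested by exact permutation. The edgeR, DESeq2 and limma fits were tested on simulated data. Alternatives were DESeq2 1.42.0, limma-voom, other scalings and filters, a cumulus marker covariate, and fits without libraries. The 10 genes and the lists were chosen with earlier results of these data known. Beside the 10, the 2 tested genes with the smallest unadjusted p are named from each list, and the 3 most alike genes for Hspa8, Hspa5, Hsp90ab1 and Hsf1; a gene in 2 lists counts in both. A gene that this rule names is not reported here.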

Additional observations from a re-analysis of the deposited data

How the results depend on the processing

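The direction of Hspa8 and Hspa5 held in all 18 alternative edgeR, DESeq2 and limma-voom fits, but whether anything passed the threshold depended on the fit. DESeq2 called 4535 genes and 1 of the 10, limma-voom with sample quality weights called 14328 and 6, and edgeR without both control 3 and AMH 3 called 9885 and 5. Leaving out 1 library gave 0 to 7513 genes and 0 to 2 of the 10, with 1607 genes without AMH 3 and 7513 without control 3. On FPKM, a pseudocount of 5 gave 2 of the 10, and leaving out 1 library 0 to 3. The share of all genes called in those FPKM fits was not computed, so these counts say nothing particular to the 10. The cause of the differences between fits was not tested.

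Dnajb1 had a log2 fold change of 0.26 by library size only, 0.78 with oocyte-list scaling, 0.0128 with a filter of at least 5 CPM in 3 libraries, 0.0759 with sample quality weights, 0.0752 with the cumulus covariate and 0.0782 without control 3 and AMH 3, and -0.146 to 0.0717 leaving out 1 library (-0.13 to 0.14 on FPKM). Hspe1 had -0.0092 with upper-quartile scaling, and Hsp90ab1 -0.0186 with the cumulus covariate. Scaling to oocyte markers gave 0.26 for Hsp90aa1 and 0.20 for Hsf1. Leaving out 1 library gave -0.68 to 2.59 for Hspa1a and -0.39 to 2.28 for Hspa1b, on FPKM -0.27 to 1.54 and -0.22 to 1.47, and -0.16 to 0.20 for the log2 ratio difference of Hspd1 over Hspe1. List medians also turned: HSP40 (0.07) to -0.15 and HSP90 co-chaperones (0.21) to -0.0042 by upper quartile, other HSP70 (0.28) to -0.06 with the 5 CPM filter, and other heat shock factors (-0.13) to 0.14 by library size, 0.42 with no filter and 0.60 scaled to oocyte markers. The median of all genes was 0.74 when scaled to oocyte markers, -0.23 by upper quartile and 0.26 by library size.

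A replicate block gave 0 genes and 0 of the 10, with a log2 fold change of 1.69 for Hspa8 (edgeR adjusted p = 0.2). The libraries share only a number: deviations of same-numbered libraries correlated at 0.06, -0.10 and -0.25, and AMH 1 correlated best with control 3 (0.27), so not every library was most like its own number.

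Among the 10 genes the lowest counts were 98 in AMH 3 and 51 in control 2, both for Hspa1a, and the others had at least 293 in every library. With 3 libraries a group an exact permutation test cannot go below 0.1. Among list genes, control 2 had 39 counts of Hsf2, 14 of Hspb8 and 0 of Hspa12b.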

Other observations

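Several of the 10 genes have processed pseudogenes that carry stretches of the same sequence. Of the 100-base windows of Hspa8 transcripts 62.8% occurred in 7 of them, and of Hsp90aa1 47.6% in 3, against 0% for Hsf1, Dnajb1, Hsp90ab1 and Hspa5. Counts on those rows were low: Gm12346 and Gm5844 held 11915 and 7464 counts over 6 libraries, 2.10% and 1.32% of Hsp90aa1, and Gm8355 held 654, or 0.300% of Hspa8. Hspd1-ps3 held 187, 233 and 153 counts in AMH 1, 2 and 3, against 325, 147 and 163 counts in controls 1, 2 and 3, which is 2.72% of Hspd1 in all. These genes were chosen after their values were seen.

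Other marker lists also differed between libraries. Macrophage markers, 9 genes, summed to 65.3, 103 and 73.8 CPM in AMH 1, 2 and 3, against 18.02, 11.6 and 30.4 CPM in controls 1, 2 and 3. Endothelial markers, with Emcn at 0 in every library, summed to 105, 122 and 177 CPM in AMH 1, 2 and 3, against 212, 222 and 183 CPM in controls 1, 2 and 3. Most of that sum was Pecam1 (87.5 of 105 CPM in AMH 1), while Cdh5 went the other way, with 2.64, 1.96 and 1.74 CPM in AMH 1, 2 and 3, against 0.403, 0.265 and 1.59 CPM in controls 1, 2 and 3. Both sums separated the groups, as did the oocyte and erythroid sums (two-sided exact permutation p = 0.1 each, 0.15 adjusted over 6 lists), while the cumulus sum (exact p = 0.4) and the oviduct sum (exact p = 0.2) did not. The oviduct sum holds Tubb4b, at 126 to 215 CPM in controls. Of its 11 markers, 8 lay above and 0 below in every AMH library (26.9% and 23.3% of all genes), with a median log2 fold change of 1.81. Ovgp1, the oviduct glycoprotein, had 379, 164 and 31.8 CPM in AMH 1, 2 and 3, against 16.6, 2.53 and 21.8 CPM in controls 1, 2 and 3. Cdh5, Pecam1, Tubb4b and Ovgp1 were chosen after their values were seen.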
